A study of Saccharomyces cerevisiae with 8 samples.

Results

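Pyruvate decarboxylases and alcohol dehydrogenases carry out the last steps of ethanol fermentation in budding yeast. The genes described here were the rows of the deposited expression table named *PDC1*, *PDC5*, *PDC6*, *ADH1*, *ADH2*, *ADH3*, *ADH4* and *ADH5*, which are 8 of 6328 genes, and all 8 were present. RNA-seq measured their transcripts in 8 libraries labelled *Saccharomyces cerevisiae* Y128, with 2 replicates (A and B) in each of 4 groups. *AZF1* MoBY cells carried a MoBY 2.0 plasmid with *AZF1*, a transcription factor gene, and MoBY control cells carried the empty plasmid. Both plasmid strains grew with 200 mg/L G418. The *azf1Δ* cells lacked *AZF1*, whose locus was replaced by a *KanMX* marker, and WT cells carried neither change, with neither of these strains given plasmid or G418. All cultures grew exponentially on 2% xylose without oxygen. All groups share a background engineered with a bacterial xylose isomerase, a fungal xylulokinase and a transaldolase gene, and evolved to carry null mutations in *ISU1*, *HOG1*, *GRE3* and *IRA2*. Y128 is 1 evolved isolate, and *AZF1* on the plasmid is expressed from its own flanking sequence. The labels give the strain as Y128, whereas the study's methods name Y133, a derivative of Y128 from which the *KanMX* marker was removed, as the parent of the *AZF1* strains. The labels and design text say that duplicates were collected on different days, so the p-values measure the spread between those cultures.

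In fermentation, pyruvate decarboxylase uses thiamine diphosphate to split pyruvate into carbon dioxide and acetaldehyde. Alcohol dehydrogenase then reduces acetaldehyde to ethanol, which returns NADH to NAD+ and lets glycolysis continue without respiration. Without oxygen, this is the main route by which yeast cells dispose of the electrons from sugar oxidation. Pdc1 is the main decarboxylase, Pdc5 is an isoenzyme known to be raised when Pdc1 is lost or thiamine is scarce, and Pdc6 is a minor isoenzyme. Adh1 is the main cytosolic enzyme that makes ethanol, and Adh2 is a cytosolic isoenzyme best known for oxidizing ethanol once glucose is gone. Adh3 is mitochondrial, Adh5 is a further isoenzyme, and Adh4 belongs to a separate enzyme family and is known to be raised when zinc is scarce.

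Reads of 100 bases were mapped, so how far the paralogs differ over that length bears on each value. In RefSeq coding sequences (assembly R64, strain S288C, which is not the Y22-3 genome that the authors used), Adh1 and Adh2 shared 93.1% of 348 aligned residues. Their coding regions shared 88.8% of 1047 bases, with an identical run of 189 bases. Pdc1 and Pdc5 shared 87.9% of 563 residues and 87.2% of 1692 bases, with a longest identical run of 65 bases. Pdc6 was 84.0% identical to Pdc1, while Adh3 and Adh5 were 79.6% and 76.7% identical to Adh1. Adh4 shared only 22.3% of 310 aligned residues with Adh1. The stretches of 60 coding bases where each close pair was most alike and least alike are shown, in lower case with bases that differ from the partner in capitals, because these differences are what separates the reads. The first pair of lines covers coding bases 193 to 252, and the second covers 668 to 727, with 16 differences.

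ADH1: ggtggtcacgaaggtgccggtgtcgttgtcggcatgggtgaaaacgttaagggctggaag
ADH2: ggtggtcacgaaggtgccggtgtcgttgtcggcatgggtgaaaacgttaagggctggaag
ADH1: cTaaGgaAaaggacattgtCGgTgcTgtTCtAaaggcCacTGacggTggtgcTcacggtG
ADH2: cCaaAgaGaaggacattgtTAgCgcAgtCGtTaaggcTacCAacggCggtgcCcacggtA

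For the decarboxylases the most alike stretch is coding bases 346 to 405 and the least alike is 559 to 618, with 19 differences.

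PDC1: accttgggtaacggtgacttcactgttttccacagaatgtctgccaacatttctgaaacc
PDC5: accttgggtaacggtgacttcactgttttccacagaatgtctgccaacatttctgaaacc
PDC1: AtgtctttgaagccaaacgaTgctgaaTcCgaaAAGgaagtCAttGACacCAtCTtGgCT
PDC5: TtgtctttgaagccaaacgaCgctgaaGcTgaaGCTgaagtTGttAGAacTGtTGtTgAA

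Of the 948 windows of 100 bases in the *ADH1* coding region, 90 (9.49%) occurred exactly elsewhere in the reference genome, and the same held for *ADH2*. None of the 1593 windows of *PDC1*, *PDC5* or *PDC6* had an exact copy, nor did any window of *ADH3*, *ADH4* or *ADH5*. Windows with 5 or fewer mismatches to the partner made up 22.4% of those in *ADH1* and *ADH2* and 10.7% of those in *PDC1* and *PDC5*. How reads that match 2 genes were counted is not given in the sources used here, so the low values of *ADH2* and *PDC5* are uncertain where they could hold reads from *ADH1* and *PDC1*. No member overlapped another RefSeq gene.

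**Figure D1:**
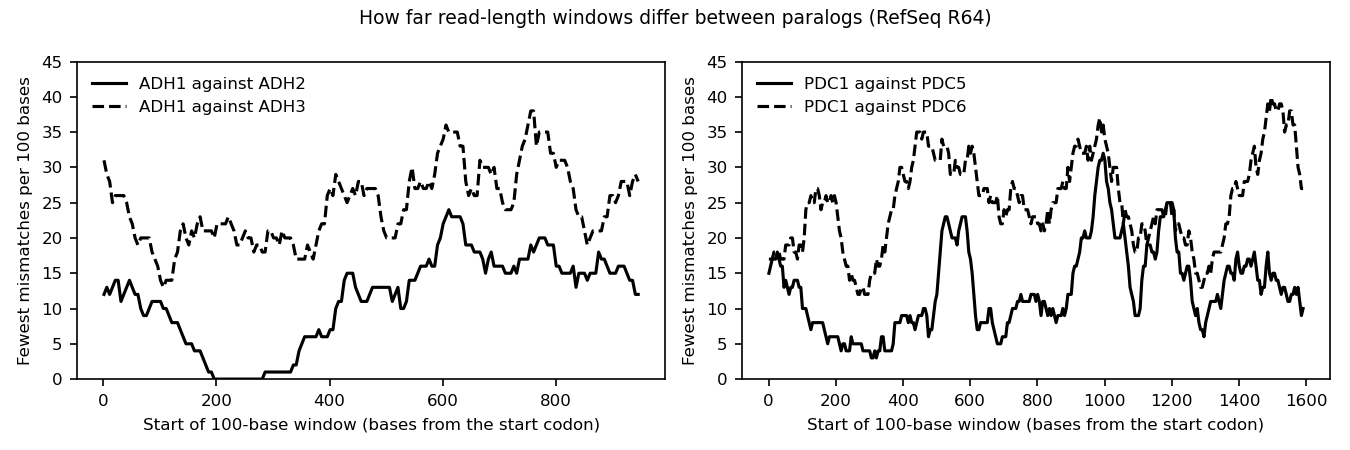
Fewest mismatches between each 100-base window of a member's coding region and any window of a paralog, against the start of the window in bases from the start codon. *ADH1* against *ADH2* reaches 0 mismatches over 90 of 948 windows, whereas *PDC1* against *PDC5* stays at 3 or more.

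The libraries held about 6180000 to 7120000 mapped reads each, as implied by the steps between low values, and 50.01% to 53.5% of them fell on genes with a RefSeq length. Values are RPKM (reads per kilobase of gene, scaled to the mapped reads of the library), which is per length and lets levels of different genes be set side by side. The labels were checked with *AZF1* itself, which stood at 0.050 and 0.120 RPKM in *azf1Δ* libraries, against 13.2 and 11.6 RPKM in WT, and at 74.0 and 73.5 RPKM in *AZF1* MoBY libraries, against 13.3 and 14.32 RPKM in MoBY control. The marker *kanR* was at 8.17 to 11.8 RPKM in *azf1Δ*. It was at 36.5 to 40.2 RPKM in *AZF1* MoBY and 68.6 to 90.5 RPKM in MoBY control. In WT it was at only 0.200 and 0.351 RPKM. The study lists Y128 itself as resistant to G418, so this near absence goes against the label Y128 for the libraries labelled WT and goes with the marker-free Y133, and the name Y128 is kept here only as the label. Replicates of MoBY control differed more than those of the other groups, with a median absolute difference of 0.20 on the log2 RPKM scale, against 0.11 to 0.14 in the other groups.

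*ADH1* and *PDC1* made up nearly all of the transcript of their families in every library. *ADH1* accounted for 95.5% to 98.1% of the summed RPKM of the 5 *ADH* genes, and *PDC1* for 96.8% to 99.3% of that of the 3 *PDC* genes. Of 6328 genes, *ADH1* stood at rank 3 in both *AZF1* MoBY libraries, at rank 2 in MoBY control A, and at rank 1 in MoBY control B and all 4 libraries without plasmid. Where it was not first, *PAU17*, a gene of the anaerobic mannoprotein family, was. *PDC1* stood at ranks 155 and 150 in *AZF1* MoBY, 93 and 95 in MoBY control, and 21 to 23 in the libraries without plasmid. The order of levels in WT was *ADH1*, *PDC1*, *ADH3*, *ADH5*, then *ADH4*, *PDC5* and *ADH2* together, then *PDC6*. The 3 genes given together had 10.8 to 16.5 RPKM in WT and each overlapped its neighbour there, while every other pair of neighbours in the order was separated by more than the spread between the replicates. The same order of the 4 highest genes held in all 8 libraries.

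The main decarboxylase gene *PDC1* had 512 and 523 RPKM in *AZF1* MoBY libraries, 776 and 771 RPKM in MoBY control, 2257 and 2385 RPKM in *azf1Δ*, and 2487 and 2195 RPKM in WT. The *AZF1* MoBY libraries lay below MoBY control, which lay below all 4 libraries without plasmid. Those 4 overlapped, since the *azf1Δ* values fell inside the range of WT.

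The major ethanol-forming gene *ADH1* had 5753 RPKM in both *AZF1* MoBY libraries, 9410 and 15287 RPKM in MoBY control, 12503 and 13308 RPKM in *azf1Δ*, and 16728 and 14165 RPKM in WT. *AZF1* MoBY stood below every other library. MoBY control A stood below all libraries without plasmid and MoBY control B lay within their range, so that group's replicates differed by 0.70 on the log2 scale. Of the 134 genes with a mean log2 RPKM of 9 or more, 3 had a gap that large in MoBY control, *ADH1* included.

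*ADH3*, encoding the mitochondrial isoenzyme, had 145 and 154 RPKM in *AZF1* MoBY, 204 and 179 RPKM in MoBY control, 331 RPKM in both *azf1Δ* libraries, and 309 and 307 RPKM in WT. *ADH5* had 83.9 and 78.8 RPKM in *AZF1* MoBY, 113 and 93.0 RPKM in MoBY control, 226 and 228 RPKM in *azf1Δ*, and 242 and 244 RPKM in WT. Both genes had their 2 lowest libraries in *AZF1* MoBY and the next 2 in MoBY control, with no overlap between groups. *PDC1* had the same order of plasmid groups, and the share of all genes with this order was not counted.

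The 4 low members did not separate the strains in this way. *PDC5* had 10.7 and 10.6 RPKM in *AZF1* MoBY, 13.6 and 9.0 RPKM in MoBY control, 12.04 and 12.2 RPKM in *azf1Δ*, and 14.4 and 10.8 RPKM in WT. *PDC6* had 4.89 and 6.73 RPKM in *AZF1* MoBY, 4.20 and 5.06 RPKM in MoBY control, 4.56 and 3.53 RPKM in *azf1Δ*, and 4.08 and 4.66 RPKM in WT. These levels overlapped between every pair of groups compared, and *PDC6* was the lowest member in all 8 libraries.

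*ADH2*, the ethanol-oxidizing isoenzyme gene, had 12.2 and 9.71 RPKM in *AZF1* MoBY, 10.4 and 13.1 RPKM in MoBY control, 15.0 and 11.2 RPKM in *azf1Δ*, and 10.8 and 13.3 RPKM in WT. *ADH4*, the zinc-linked gene, had 14.8 and 11.96 RPKM in *AZF1* MoBY, 14.2 and 11.5 RPKM in MoBY control, 17.9 and 16.5 RPKM in *azf1Δ*, and 16.5 and 14.32 RPKM in WT. By the implied depth, *PDC6* rested on 37 to 71 reads a library and *ADH2* on 63 to 112, against 37226 to 108684 for *ADH1*. For *ADH4* the MoBY control values lay just below those of WT, and the other groups compared overlapped or touched. Differences in the low members carry more counting error than those in the high ones.

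**Figure D2:**
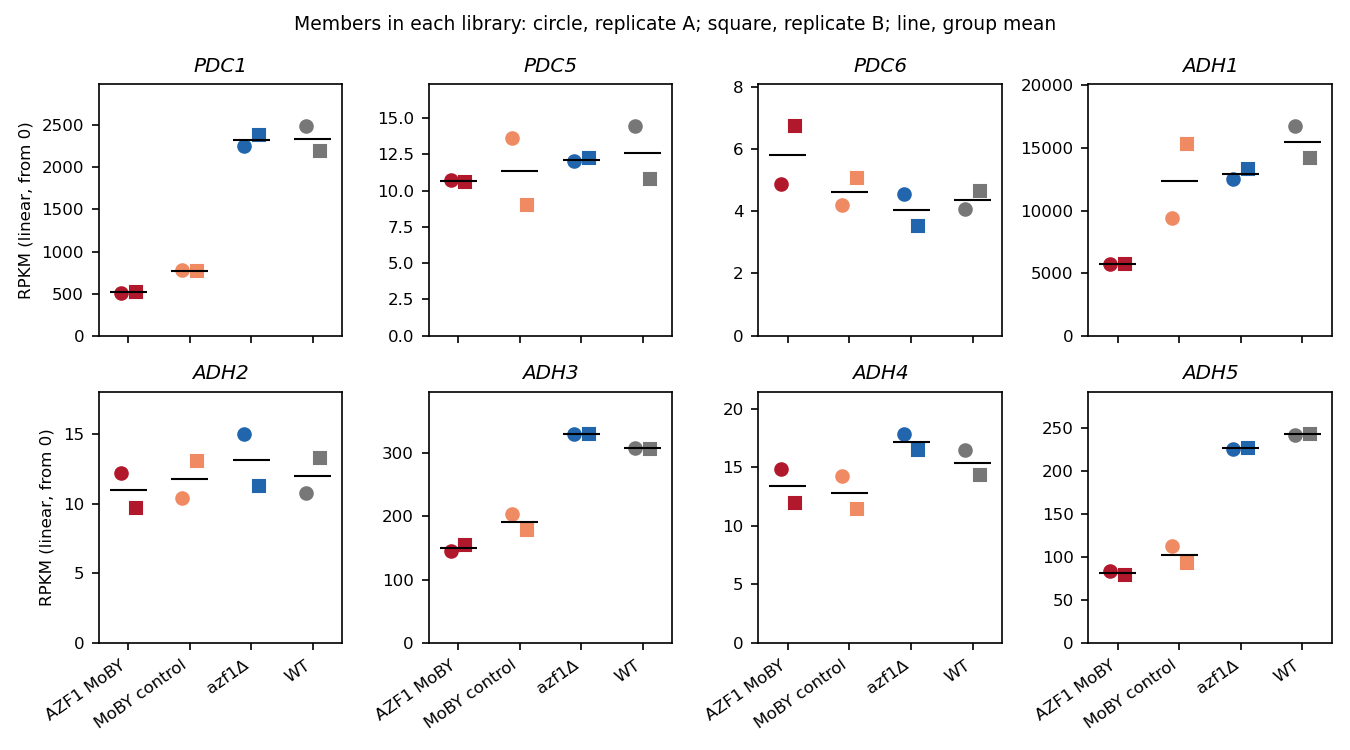
RPKM of each member (vertical axes linear from 0, a scale per gene) in the *AZF1* MoBY, MoBY control, *azf1Δ* and WT libraries, with circles for replicate A, squares for replicate B and lines for group means. *PDC1*, *ADH3* and *ADH5* are lowest in *AZF1* MoBY, next lowest in MoBY control and highest without plasmid, and the 2 MoBY control points of *ADH1* lie at 9410 and 15287 RPKM.

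To ask what extra copies of *AZF1* did, *AZF1* MoBY was compared with MoBY control, both with plasmid and G418. The marker *kanR* differed between them, at 38.4 ± 2.63 RPKM in *AZF1* MoBY and 79.6 ± 15.5 RPKM in MoBY control. What part this difference had was not tested. *PDC1* and *ADH1* fell. *PDC1* averaged 517 ± 7.61 RPKM in *AZF1* MoBY and 773 ± 3.79 RPKM in MoBY control (SD, n = 2 each), a log2 change of -0.58 ± 0.08 (SE) and a fold of 0.669 (limma, adjusted p = 0.0080). *ADH1* averaged 5753 RPKM in *AZF1* MoBY, with equal values to the 2 decimals of log2 deposited, and 12348 ± 4155 RPKM in MoBY control, a log2 change of -1.06 ± 0.23 and a fold of 0.480 (limma, adjusted p = 0.0329). Fold changes here and elsewhere are on the log2(RPKM + 1) scale, and changed genes are those below 0.05 after Benjamini-Hochberg adjustment over all genes tested.

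These 2 of 8 members fell and none rose, where 6.17% of the 6029 genes tested fell, 10.2% rose and 16.4% changed in all. The other members did not pass the test. *ADH3* was at -0.35 ± 0.10 (limma, adjusted p = 0.0727) and *ADH5* at -0.33 ± 0.12 (limma, adjusted p = 0.124), though neither gene's replicates overlapped between the strains. Such separation of 2 libraries from 2 has an exact permutation p of 0.333, and its share over all genes was not counted. *PDC5*, *PDC6*, *ADH2* and *ADH4* had log2 differences of -0.09 to 0.27, with 95% intervals that reached from -0.58 to 0.79. The median over the 8 members was -0.21, against 0.00 over all genes tested. The *ADH1* value hung on which MoBY control library was used, with a log2 change of -1.41 without MoBY control A and -0.71 without MoBY control B. *ADH1* lost the call without the filter on low values (adjusted p = 0.0914) and without the variance trend (adjusted p = 0.0655), and no gene of the table was called when either *AZF1* MoBY library was left out, where the lone sample is assumed to vary like the others.

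Comparing MoBY control with WT sets the empty plasmid strain beside its parent. The plasmid and G418 differ together here and cannot be told apart. *PDC1*, *ADH5* and *ADH3* fell in MoBY control. *PDC1* averaged 773 ± 3.79 RPKM in MoBY control and 2341 ± 206 RPKM in WT, a log2 change of -1.59 ± 0.12 and a fold of 0.331 (limma, adjusted p = 0.00042). *ADH5* averaged 103 ± 14.1 RPKM in MoBY control and 243 ± 1.19 RPKM in WT, a log2 change of -1.24 ± 0.12 (limma, adjusted p = 0.0012). *ADH3* averaged 191 ± 17.8 RPKM in MoBY control and 308 ± 1.51 RPKM in WT, a log2 change of -0.69 ± 0.11 (limma, adjusted p = 0.0072). *ADH1*, with 12348 ± 4155 RPKM in MoBY control and 15446 ± 1813 RPKM in WT, did not pass the test at -0.36 ± 0.27 (limma, adjusted p = 0.387), and its value was -0.01 without MoBY control A and -0.71 without MoBY control B.

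So 3 of 8 members fell and none rose, where 10.6% of the 5991 genes tested fell, 13.2% rose and 23.7% changed in all. *ADH4* was at -0.25 ± 0.16, and *PDC5*, *PDC6* and *ADH2* lay between -0.16 and 0.07. The median over the 8 members was -0.30, against -0.02 over all genes tested. The calls for *PDC1* and *ADH5* held in all 11 alternative fits, and that for *ADH3* in 8 of 11, lost without WT A (adjusted p = 0.0981), without WT B (adjusted p = 0.101) and without MoBY control B (adjusted p = 0.0523). This comparison and that of *AZF1* MoBY with MoBY control share the MoBY control libraries, so the changes in both are not independent.

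Loss of *AZF1* was tested as *azf1Δ* against WT. None of the 8 members was called, where 1.73% of the 5944 genes tested changed in the limma fit. None had an unadjusted p under 0.05, which 17.6% of all genes tested had. *PDC1* averaged 2321 ± 91.0 RPKM in *azf1Δ* and 2341 ± 206 RPKM in WT, a log2 difference of -0.01 with a 95% interval of -0.25 to 0.23. *ADH1* averaged 12906 ± 569 RPKM in *azf1Δ* and 15446 ± 1813 RPKM in WT. Its log2 difference of -0.25 ± 0.13 was not called (limma, adjusted p = 0.373), with a 95% interval of -0.57 to 0.06, although both *azf1Δ* libraries were below both WT libraries. *ADH3* (0.10) and *ADH5* (-0.10) also had groups that did not overlap, with differences of under 0.11 in size that were not called. Separation of 2 libraries from 2 has an exact permutation p of 0.333, and its share over all genes was not counted. Intervals for the remaining members reached at most -0.54 to 0.52. No alternative fit called any member.

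**Figure D3:**
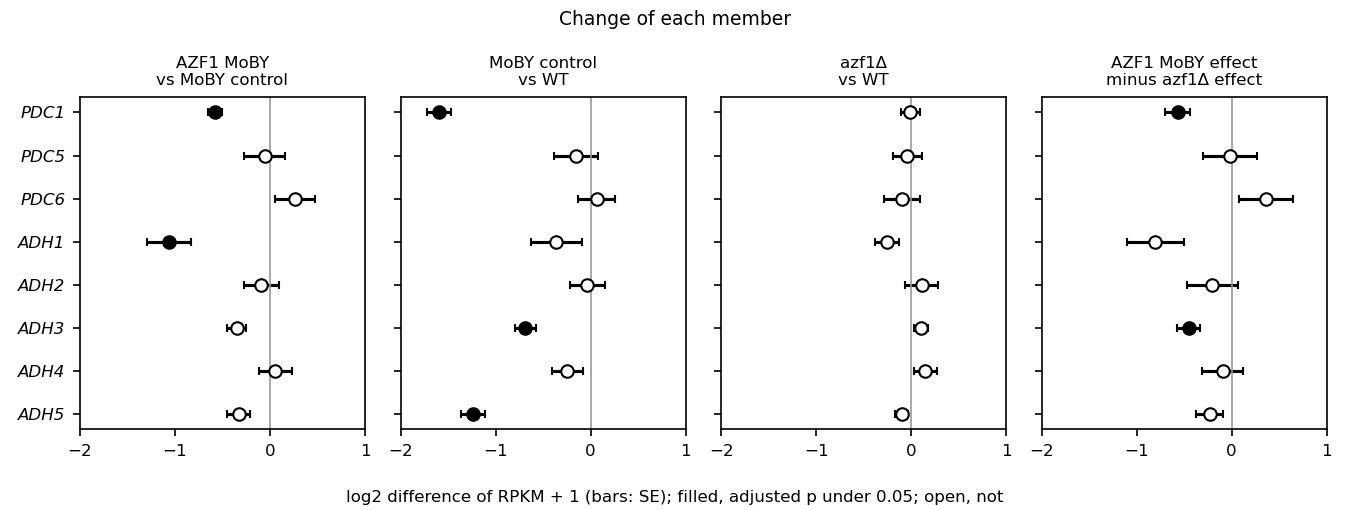
Difference of log2(RPKM + 1) for each member (rows) with its SE, in the 3 pairwise comparisons and in the effect of *AZF1* MoBY minus that of *azf1Δ*, with filled points at an adjusted p under 0.05. *PDC1* and *ADH1* are filled for *AZF1* MoBY against MoBY control, *PDC1*, *ADH3* and *ADH5* for MoBY control against WT, none for *azf1Δ* against WT, and *PDC1* and *ADH3* for the difference of effects.

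The effect of extra *AZF1* was then set against that of its loss in a fit of all 8 libraries. *PDC1* differed, with an *AZF1* MoBY effect of -0.58 and an *azf1Δ* effect of -0.01, a difference of -0.57 ± 0.13 (limma, adjusted p = 0.0210). *ADH3* differed by -0.45 ± 0.12 (limma, adjusted p = 0.0390), with an effect of -0.35 in *AZF1* MoBY and 0.10 in *azf1Δ*. *ADH1* did not pass the test at -0.80 ± 0.30 (limma, adjusted p = 0.111), with effects of -1.06 and -0.25 in the same direction. These 2 of 8 members compare with 14.7% of the 6105 genes tested, and both were lower, as were 6.8% of genes. The calls were sensitive to the fit. *PDC1* kept its call in 7 of 14 alternative fits (highest adjusted p = 0.0901) and *ADH3* in 5 of 14 (highest adjusted p = 0.138), and neither was called without the variance trend or after rescaling. The *ADH1* difference was called at -1.15 without MoBY control A (adjusted p = 0.0061) and was -0.45 without MoBY control B, where *ADH5* was called at -0.37 (adjusted p = 0.0485). Gain and loss were measured against different controls, the first with plasmid and G418 and the second without.

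Summed over isoenzymes, *PDC* transcript averaged 534 ± 8.80 RPKM in *AZF1* MoBY, 794 and 785 RPKM in the 2 MoBY control libraries, 2337 ± 90.4 RPKM in *azf1Δ*, and 2505 and 2210.4 RPKM in the 2 WT libraries. Summed *ADH* transcript was 6008 ± 0.778 RPKM in *AZF1* MoBY, 9751 and 15583 RPKM in MoBY control, 13493 ± 567 RPKM in *azf1Δ*, and 17306 and 14743 RPKM in WT. The ratio of summed *ADH* to summed *PDC* was 11.3 ± 0.187 in *AZF1* MoBY, 16.1 ± 5.36 in MoBY control, 5.77 ± 0.0192 in *azf1Δ*, and 6.79 ± 0.169 in WT. Every plasmid library was thus above every library without plasmid in this ratio, which does not depend on how libraries are scaled. With 2 libraries against 2, an exact permutation test cannot go below p = 0.333, so ratios and shares are given as values.

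The 8 members took 1.43% and 1.43% of all summed RPKM in *AZF1* MoBY, 2.36% and 3.58% in MoBY control, 3.32% and 3.60% in *azf1Δ*, and 4.32% and 3.82% in WT. *PDC1* was 47.8 and 49.5 times *PDC5* in *AZF1* MoBY, 56.9 and 85.6 times in MoBY control, 187 and 195 times in *azf1Δ*, and 172 and 204 times in WT. *ADH1* was 471 and 592 times *ADH2* in *AZF1* MoBY, 904 and 1168 times in MoBY control, 832 and 1184 times in *azf1Δ*, and 1552 and 1067 times in WT. Between *AZF1* MoBY and MoBY control, where *ADH1* fell, the *ADH2* values overlapped. The other members' share of *ADH* transcript was small throughout, with *ADH3* at 1.15% to 2.57% and *ADH5* at 0.597% to 1.73%.

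**Figure D4:**
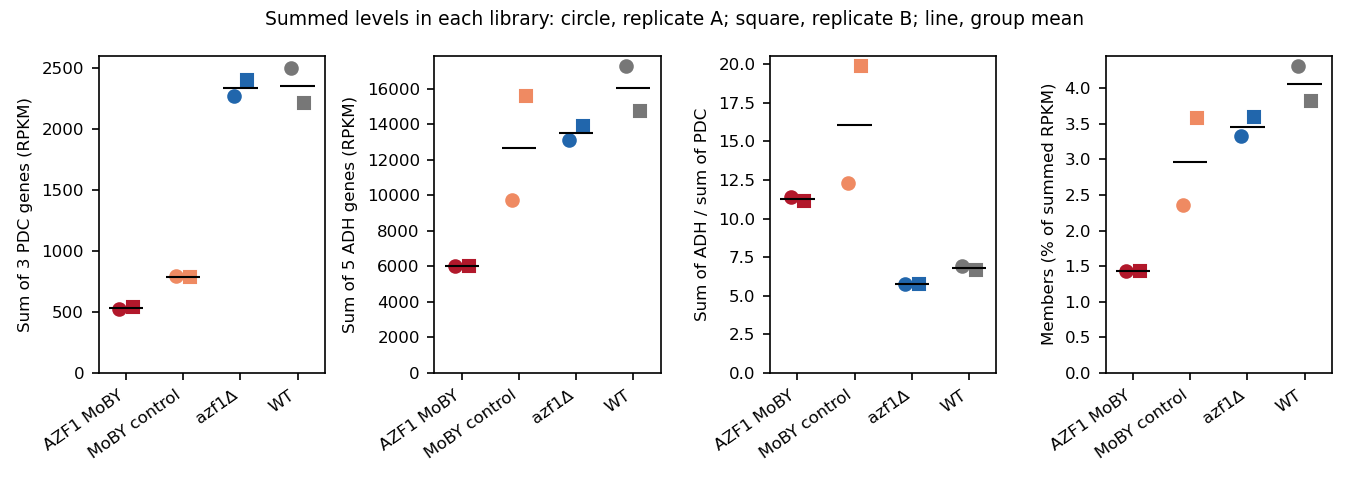
Summed RPKM of the 3 *PDC* genes, summed RPKM of the 5 *ADH* genes, their ratio, and the members' share of all summed RPKM (vertical axes from 0) in each library, with circles for replicate A, squares for replicate B and lines for group means. The ratio lies between 11.1 and 19.9 in the plasmid libraries and between 5.76 and 6.91 in the libraries without plasmid.

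The enzymes above pyruvate were counted next. In *AZF1* MoBY against MoBY control, 13 of 16 glycolytic genes fell and none rose, with a median of -0.60 against 0.00 over all genes tested, including *TPI1* (triose phosphate isomerase, -1.12), *HXK1* (hexokinase, -0.97) and *TDH2* (glyceraldehyde-3-phosphate dehydrogenase, -0.97). Over all genes tested, 6.17% fell and 10.2% rose there. In MoBY control against WT, 11 of 16 fell and none rose, with a median of -0.70 against -0.02 over all genes tested, including *TDH1* (-1.11), *HXK1* (-1.06) and *ENO1* (enolase, -0.97). Among all genes tested in that comparison, 10.6% fell and 13.2% rose. None of the 16 was called in *azf1Δ* against WT, beside 1.73% of all genes tested. Even so, 7 had an unadjusted p under 0.05 in limma (17.6% over all genes tested) and 15 of 16 were below 0 (median -0.21, against 0.04 over all genes tested). Of the members' neighbours, *CDC19*, the pyruvate kinase gene that feeds pyruvate decarboxylase, fell to 1244 ± 48.8 RPKM in *AZF1* MoBY, against 1920 ± 263 RPKM in MoBY control. The ratio of *PDC1* to *CDC19* was 0.423 and 0.409 in *AZF1* MoBY and 0.369 and 0.444 in MoBY control, so that ratio overlapped between these strains. It was 0.707 and 0.785 in *azf1Δ*, above the 0.688 and 0.603 of WT.

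The list around the pyruvate and acetaldehyde branch point held pyruvate kinase, pyruvate carboxylase, pyruvate dehydrogenase, mitochondrial pyruvate carrier, aldehyde dehydrogenase and acetyl-CoA synthetase genes. It shares *CDC19* with the glycolytic list. In *AZF1* MoBY against MoBY control, 6 of its 19 genes fell and none rose (median -0.29). Over all genes tested, 6.17% fell and 10.2% rose in that comparison. *ALD6*, the cytosolic aldehyde dehydrogenase that draws acetaldehyde away from ethanol toward acetate, fell by 1.62 on the log2 scale, to 60.1 ± 1.77 RPKM in *AZF1* MoBY, against 187 ± 0.915 RPKM in MoBY control. *ALD4*, a mitochondrial aldehyde dehydrogenase, fell by 0.67 and *CDC19* by 0.62. In MoBY control against WT, 7 of 19 fell and none rose (median -0.19), led by *ALD4* (-1.67), *CDC19* (-0.92) and *ALD6* (-0.80). There, 10.6% of all genes tested fell and 13.2% rose. None of the 19 was called in *azf1Δ* against WT, beside 1.73% of all genes tested. Of the 19, 6 had an unadjusted p under 0.05 in limma, against 17.6% of all genes tested.

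Some related enzymes outside the members rose. Of 12 further decarboxylase, alcohol dehydrogenase and reductase genes, 9 were in the table, and 4 rose and none fell in *AZF1* MoBY against MoBY control (median 0.38). Over all genes tested, 10.2% rose and 6.17% fell in that comparison. *ARO10*, the decarboxylase of amino acid-derived keto acids, had 58.7 ± 0.863 RPKM in *AZF1* MoBY and 25.7 ± 1.51 RPKM in MoBY control, a log2 change of 1.16 ± 0.10 (limma, adjusted p = 0.0031). *BDH1*, for butanediol dehydrogenase, rose by 0.55 and *SFA1*, an alcohol dehydrogenase that also acts on formaldehyde-glutathione, by 0.50. In MoBY control against WT, 3 of 9 rose and none fell (median 0.21): *GRE2* (1.37), *GRE3* (1.04) and *SFA1* (0.53). There, 13.2% of all genes tested rose and 10.6% fell. *GRE3* is a gene with a null mutation in this background. None of the 9 was called in *azf1Δ* against WT, beside 1.73% of all genes tested. Of the 9, 1 had an unadjusted p under 0.05 in limma, against 17.6% of all genes tested.

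Zinc is a cofactor of Adh1, and *ADH4* is known to be turned on by the zinc-responsive factor Zap1. In *AZF1* MoBY against MoBY control 4 of 12 measured Zap1-dependent genes rose and none fell, and in MoBY control against WT 3 rose and 2 fell. Over all genes tested, 10.2% rose and 6.17% fell in the first of these comparisons, and 13.2% rose and 10.6% fell in the second. *ZRT1*, the high-affinity zinc transporter gene, had 1687 and 1746 RPKM in *AZF1* MoBY, 644 and 635 RPKM in MoBY control, 56.1 and 60.5 RPKM in *azf1Δ*, and 60.5 and 48.8 RPKM in WT, with log2 changes of 1.42 and 3.53 in the first and second of these comparisons (limma, adjusted p = 0.0022 and 3.3e-05). *IZH1*, a zinc homeostasis membrane protein gene, changed by 1.23 and 1.38. *ZRT2* rose by 0.45 in *AZF1* MoBY, and *FET4*, a metal transporter gene, fell by 0.61 in MoBY control. *ADH4* was not called in either, at 0.06 ± 0.18 and -0.25 ± 0.16 (limma, adjusted p = 0.863 and 0.327). *ZAP1* itself was at 0.29 and 0.08 and was not called. In *azf1Δ* against WT none of the 12 genes was called, beside 1.73% of all genes tested. Of the 12, 2 had an unadjusted p under 0.05 in limma there, against 17.6% of all genes tested.

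Thiamine genes set the supply of the decarboxylase's cofactor, and 13 of the 20 listed were in the table. *THI5*, *THI11*, *THI12*, *THI13*, *SNZ2*, *SNZ3* and *SNO3* were not, so nothing is known of them here. None of the 13 was called in *AZF1* MoBY against MoBY control, MoBY control against WT or *azf1Δ* against WT, beside 16.4%, 23.7% and 1.73% of all genes tested. In the same order, 3, 1 and 2 of the 13 had an unadjusted p under 0.05 in limma. Over all genes tested these shares were 31.8%, 36.7% and 17.6%, so the thiamine counts were below or near the background. *PDC2*, the activator of *PDC1*, *PDC5* and thiamine genes, had 13.7 ± 1.74 RPKM in *AZF1* MoBY, 13.2 ± 2.70 RPKM in MoBY control, 15.6 ± 0.0765 RPKM in *azf1Δ* and 12.5 ± 1.41 RPKM in WT, and was not called in any of these comparisons. *GCR1*, an activator of glycolytic genes, *ADH1* and *PDC1*, fell in MoBY control to 17.0 ± 0.167 RPKM, against 26.9 ± 0.264 RPKM in WT (log2 change -0.63 ± 0.12, limma, adjusted p = 0.0124), and was at -0.33 ± 0.13 in *AZF1* MoBY (limma, adjusted p = 0.135). *GCR2*, its partner, was at -0.40 and -0.13 in those comparisons and not called. In MoBY control *RAP1*, a further activator of glycolytic genes, fell by 0.48, and *MIG2*, a glucose repressor gene, rose by 1.05. Of 15 listed regulators, 2 fell and 1 rose there, beside 10.6% and 13.2% of all genes tested. In *AZF1* MoBY against MoBY control 1 fell and 1 rose, beside 6.17% and 10.2%. These counts were near the background. None of the 15 was called in *azf1Δ* against WT, where 4 had an unadjusted p under 0.05 in limma (17.6% over all genes tested).

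*ADR1*, the activator of *ADH2*, rose in *AZF1* MoBY to 41.1 ± 2.82 RPKM, against 27.5 ± 0.269 RPKM in MoBY control (log2 change 0.56 ± 0.11, limma, adjusted p = 0.0227), while *ADH2* was at -0.09 ± 0.18. *MIG1*, a repressor gene of the glucose pathway, fell by 0.62. *CAT8*, which activates genes of ethanol use, was at -0.15 in *AZF1* MoBY, -0.02 in MoBY control and 0.40 in *azf1Δ*, and was not called. Of other Adr1-dependent genes, 1 of 10 tested fell in *AZF1* MoBY against MoBY control, namely *ALD4*, a count near the 6.17% of all genes tested that fell there. *ALD4* was counted in the pyruvate and acetaldehyde branch list as well. In MoBY control against WT 4 of 10 fell, beside 10.6% of all genes tested. Among these were *ATO3* (ammonium transport, -1.85) and *POX1* (peroxisomal fatty-acid oxidation, -1.69) with *ALD4*. None of 11 was called in *azf1Δ* against WT, beside 1.73% of all genes tested. Of the 11, 3 had an unadjusted p under 0.05 in limma, against 17.6% of all genes tested.

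**Figure D5:**
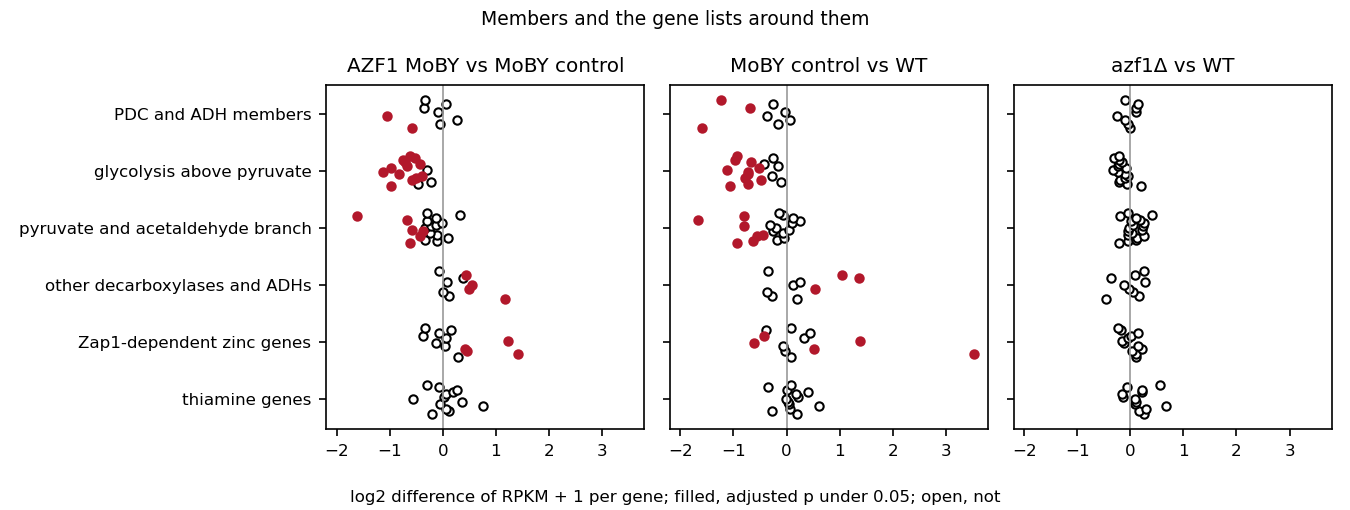
Difference of log2(RPKM + 1) for each gene (points) of the members and of 5 gene lists (rows) in the 3 pairwise comparisons, with filled points at an adjusted p under 0.05. The filled points of glycolysis and of the pyruvate and acetaldehyde branch lie below 0, those of the other decarboxylase and alcohol dehydrogenase genes lie above 0, and no point is filled for *azf1Δ* against WT.

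For each member called in a pairwise comparison, the genes with the most similar profile over the 8 libraries were sought among 5638 genes, by the root mean square difference of centred log2(RPKM + 1) values. The 8 libraries are 4 groups of 2, so the correlations mostly follow the group means and are given as a description. *PDC1* was nearest to *ALD4* (difference 0.157, r = 0.995) and *HXK1* (0.197, r = 0.980). *ADH1* was nearest to *CLB2*, a mitotic cyclin gene (0.110, r = 0.981), and *RPS4B*, a ribosomal protein gene (0.136, r = 0.977). *ADH3* was nearest to *IDP1*, a mitochondrial isocitrate dehydrogenase gene (0.047, r = 0.995), and *PFK27*, for an enzyme that makes fructose-2,6-bisphosphate (0.060, r = 0.994). *ADH5* was nearest to *RRT6* (0.098, r = 0.991) and *FUR1*, for uracil phosphoribosyltransferase (0.112, r = 0.987).

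Motifs of the factors above were sought, on both strands, from 250 bases before to 50 bases after the start codon's first base in RefSeq R64, where the promoters are those of S288C and not of the strain studied. The Azf1 motif AAAAGAAA was found at *ADH1* and *PDC6*, once at each, and in 20.6% of 6020 promoters of the same length. The windows of 30 bases are shown because *ADH1* fell in *AZF1* MoBY while *PDC6* was not called there. The motif, in capitals, lies on the opposite strand at both genes, with its first base in this orientation 61 bases before the start codon at *ADH1* and 209 at *PDC6*.

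ADH1: tttcttccttgTTTCTTTTtctgcacaata
PDC6: tggtgcttcaaTTTCTTTTtatgaattgat

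*PDC1*, which fell in *AZF1* MoBY, held no match to these letters in its window. The Gcr1 motif CTTCC occurred 4 times at *ADH1*, with 2 of the matches sharing a base, 2 times at *ADH5* and 1 time at *ADH3* and *ADH4*, and in 46.3% of all promoters. The *ADH4* match begins 4 bases after the first base of the start codon, within the coding region. TATAAA occurred at every member but *PDC5*, and in 45.4% of promoters. Neither the Adr1 letters TTGGAG and TTGGGG (16.4% of promoters) nor the Zap1 core CCTTNAAGG (0.432%) occurred in any member's window. Sites further than 250 bases before the start codon were not searched, so these misses do not show that a promoter lacks the letters. A match or its absence here is a description of the letters and not of binding.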

How the data were processed

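Per the labels and the study's methods, the authors depleted rRNA, made strand-specific libraries, sequenced single-end reads of 100 bases, trimmed them with Trimmomatic 0.3.0, aligned them with Bowtie2 2.2.2 to the Y22-3 genome and counted them with HTSeq 0.6.0. Versions are those in the submitters' processing notes. The strand setting of the counting is not given in the sources used here. The deposited table holds log2 RPKM values to 2 decimals for 6328 genes, with replicates A and B unpooled. Groups were taken from the labels.

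The log was undone, 1 was added to each RPKM and log2 taken again before testing by limma 3.58.1 (R 4.3.3) with a variance trend and Benjamini-Hochberg adjustment over all genes tested. A gene entered a comparison if 2 or more of its libraries reached 1 RPKM. The design named edgeR for counts, which were not used here, so the route for normalized values applied. Shares and ratios per library were compared with a two-sided exact permutation test. Depth was inferred from whole-multiple steps of low RPKM values times length: 83.2% to 89.8% of low values fell within 0.15 of a whole multiple, and simulated libraries were recovered to within 0.0421%. Counting error and PCR duplicates limit low values, as reads are not independent molecules. The limma step was tested on simulated data.

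Lengths, identities and motifs came from RefSeq R64 with Biopython, and no coordinates are given. The members and gene lists were chosen with earlier results of these data known. Text names all members, regulators *PDC2*, *ADR1*, *CAT8*, *GCR1*, *GCR2* and *ZAP1*, up to 3 called genes of the largest change per list and comparison, and the 2 nearest genes per called member. Alternatives were the pseudocount, filter, variance trend, scaling, fit of all libraries, a replicate block and leaving out each library.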

Additional observations from a re-analysis of the deposited data

Results flagged for a closer look

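The effect of extra *AZF1* differed from that of its loss for *PDC1* and *ADH3* in the limma fit of all 8 libraries. The difference of effects on the log2(RPKM + 1) scale was -0.57 for *PDC1* (adjusted p = 0.0210), with *AZF1* MoBY at -0.58 against MoBY control and *azf1Δ* at -0.01 against WT. For *ADH3* it was -0.45 (adjusted p = 0.0390), from -0.35 in *AZF1* MoBY and 0.10 in *azf1Δ*, where neither effect was called in its pairwise fit. With all 8 libraries in the fit, the *ADH3* effect in *AZF1* MoBY was called (limma, adjusted p = 0.0195). Neither gene's difference of effects was called without the variance trend or after rescaling. Both *AZF1* MoBY libraries were below both MoBY control libraries at each gene, a separation with an exact permutation p of 0.333. The part of plasmid and G418, present in the first comparison and not in the second, was not tested.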

How the results depend on the processing

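No alternative reversed a result. The count of members called for *AZF1* MoBY against MoBY control was 2, and 1 without the filter on low values, 1 without the variance trend, 4 with all 8 libraries in the fit and 0 to 2 on leaving out a library. For MoBY control against WT it was 3, and 2 to 3 on leaving out a library. For the difference of effects it was 2, and 0 without the variance trend, 0 after rescaling and 0 to 3 on leaving out a library. For *azf1Δ* against WT it was 0 throughout. Counts over all genes moved further. For *azf1Δ* against WT 103 genes became 5 without the filter, 5 without the variance trend, 61 after rescaling and 0 on leaving out any library. For *AZF1* MoBY against MoBY control 988 became 599 without the variance trend and 0 to 484 on leaving out a library. The range was 282 to 503, of 1422, for MoBY control against WT and 386 to 1140, of 897, for the difference of effects. The causes were not tested, but leaving out a library leaves fewer samples. With 2 libraries per group, leaving out 1 gives the value of the other, which tests no stability: the ratio of summed *ADH* to summed *PDC* was 11.1 to 11.4 in *AZF1* MoBY, 12.3 to 19.9 in MoBY control, 5.76 to 5.79 in *azf1Δ* and 6.67 to 6.91 in WT.

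The replicate letters were not shown to pair samples, as correlations of A minus B between groups were -0.11 to 0.01 across genes. With the replicate block, 2, 3 and 0 members were called for *AZF1* MoBY against MoBY control, MoBY control against WT and *azf1Δ* against WT, and 1 for the difference of effects, where *ADH3* had an adjusted p of 0.0539. All-gene counts with the block were 674, 1497, 0 and 819 for the same comparisons. Crossing the letters of *azf1Δ* and WT, chosen after seeing the data, gave 41 genes.

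Depth limits the low members most: *PDC6* rested on 37 to 71 reads a library. With 2 libraries per group, a change that was not called is not shown to be absent.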
